A study of Mus musculus with 4 samples.

Results

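The myosin light chain genes of skeletal muscle were examined in soleus muscles of *mdx* mice. 7 gene symbols were taken by name from the deposited table of 24054 symbols: Myl1, Mylpf, Myl2, Myl3, Myl4, Myl6b and Mylk2. Soleus muscles were collected 12 months into a study in which *mdx* mice, whose dystrophin gene is mutated, received once-monthly infusions into the femoral vein from 8 weeks of age. The mCDC group received mouse cardiosphere-derived cells, a stromal cell type grown from mouse heart, and the vehicle group received the culture medium alone. Both groups were female *mdx* mice, and there was no group with normal dystrophin. Each group was represented by 2 libraries, so p-values measure only the spread between these 4 muscles. The fits share information on that spread across genes. Library totals of expected counts ran from 22481391 to 27187425, and the 7 genes together took between 1.62% and 1.91% of them.

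Each myosin motor carries an essential and a regulatory light chain around the lever arm of its heavy chain, and the light chains tune how fast and how strongly the motor works. Fast fibers use the essential chain encoded by Myl1 and the regulatory chain encoded by Mylpf, whereas slow fibers use Myl3 and Myl2, which the ventricle of the heart also uses. Myl4 encodes the essential chain of embryonic muscle and of the atrium, Myl6b encodes a further essential chain found in slow muscle and in non-muscle cells, and Mylk2 encodes the skeletal muscle kinase that phosphorylates the regulatory chains. The soleus of the mouse is a postural muscle that mixes slow fibers with fast fibers, so both sets are measured in the same RNA.

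On GRCm38, the build that matches the mm10 named in the processing notes, Myl1 (ENSMUSG00000061816.15) lies at chr1:66924295-66945404 on the minus strand and Mylpf (ENSMUSG00000030672.12) at chr7:127208890-127214298 on the plus strand. Myl2 (ENSMUSG00000013936.12) lies at chr5:122100951-122113472 and Myl3 (ENSMUSG00000059741.13) at chr9:110741861-110769798, both on the plus strand. Myl4 lies at chr11:104550663-104595753, Myl6b at chr10:128494157-128498685 and Mylk2 at chr2:152911352-152923068. The representative transcripts of the 4 main chains are short, from 662 bases for Myl2 to 1082 for Myl1, and each has 7 exons. The table gives 1 value per gene, so the transcripts of Myl1 that start at different promoters, which encode a longer and a shorter fast essential chain, are counted together. Of the 31-base words in the annotated transcripts, 0.28% to 4.13% also occurred in other genes for Myl2, Myl3, Myl4, Myl6b and Mylk2 and none did for Mylpf. For Myl1 the share was 14.5%, and the gene that shared the most was a pseudogene, Mylf-ps, which has no row in the table.

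Sequence upstream of the RefSeq start site is shown for Myl1 and Mylpf, the fast pair whose levels moved together among the libraries, and for the slow gene Myl3. Bases that GENCODE places in an exon of the same gene were left out, and capitals mark an E-box (CANNTG, the site of myogenic helix-loop-helix factors), TATAAA on either strand, or a CArG box, the site of serum response factor.
Myl1, chr1:66945144-66945290, minus strand: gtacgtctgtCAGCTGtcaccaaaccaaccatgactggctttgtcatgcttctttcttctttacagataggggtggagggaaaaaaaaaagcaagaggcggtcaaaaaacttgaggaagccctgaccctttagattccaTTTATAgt
Mylpf, chr7:127211358-127211607, plus strand: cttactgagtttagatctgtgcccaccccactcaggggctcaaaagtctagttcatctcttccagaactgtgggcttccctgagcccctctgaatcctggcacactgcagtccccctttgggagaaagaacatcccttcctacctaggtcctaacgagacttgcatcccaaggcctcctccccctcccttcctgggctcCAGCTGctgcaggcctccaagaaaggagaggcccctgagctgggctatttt
Myl3, chr9:110763428-110763645, plus strand: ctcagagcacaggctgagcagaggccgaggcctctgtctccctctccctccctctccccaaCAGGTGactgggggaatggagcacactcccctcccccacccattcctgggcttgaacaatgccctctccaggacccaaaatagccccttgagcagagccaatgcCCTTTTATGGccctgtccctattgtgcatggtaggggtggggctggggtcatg
In the full window of 250 bases before the start site, each of the 3 promoters held 1 E-box, as did 66.2% of 32851 RefSeq promoters of that length at least once. The CArG box in Myl3 starts at position -85, and 1.5% of all promoters held one. Myl1 held TATAAA on the opposite strand, at -95, as 12.4% of all promoters did on either strand. The MEF2 consensus was searched on both strands and did not occur in these windows, and 0.5% of all promoters held it. The windows of Myl1, Mylpf and Myl3 lie inside the GENCODE spans of these genes, downstream of the outermost start. The windows listed for Myl2 lie upstream of its GENCODE start and are not shown, and Mylk2 had no entry.

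Slow light chains were the more abundant in every library. To compare genes of different length, each count was expressed as CPM, a share of its library's total after the trimmed-mean (TMM) scaling of edgeR, and divided by transcript length in kilobases. On that scale Myl2 ranged from 10096 to 12584 CPM per kilobase over the 4 libraries and Myl3 from 4332 to 5461. Mylpf ranged from 2263 to 3423 and Myl1 from 2053 to 2927. Myl6b, at 249 to 326, Mylk2, at 99.0 to 170, and Myl4, at 88.1 to 107, were far lower. Ordered by median the levels ran Myl2, Myl3, Mylpf, Myl1, Myl6b, Mylk2 and Myl4, and the ranges of Mylpf and Myl1 and those of Mylk2 and Myl4 overlapped. Without regard to length, Myl2 ranked 12 and Myl3 ranked 28 among all listed genes by mean CPM.

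For both slow chains the 2 mCDC libraries lay above the 2 vehicle libraries after TMM scaling, by amounts that did not pass the test. Myl2 had 8331 and 7732 CPM in mCDC replicates 1 and 2 and 7225 and 6684 CPM in vehicle replicates 1 and 2. The gap between the groups, from 7225 to 7732 CPM, was about as wide as the gaps within them. The fitted log2 fold change was 0.21 (standard error 0.20, edgeR's quasi-likelihood test, adjusted p = 0.821), with a 95% interval from -0.25 to 0.67. Myl3 stood at 5117 and 4603 CPM in mCDC muscles, against 4060 and 4413 CPM with vehicle. Its groups did not overlap on this scale either, and its log2 fold change was 0.20 (standard error 0.18, edgeR adjusted p = 0.820, 95% interval -0.23 to 0.62). Without TMM scaling, Myl3 made up 0.497% and 0.448% of the mCDC library totals, against 0.410% and 0.461% with vehicle, and the groups overlapped.

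Fast light chains differed more between the vehicle muscles than between the groups. Myl1 had 2817 and 2566 CPM in mCDC replicates 1 and 2, and 2221 and 3167 CPM in vehicle replicates 1 and 2. The mCDC muscles had 2423 and 2029 CPM of Mylpf, and the vehicle muscles had 1734 and 2622 CPM. For both genes vehicle replicate 2 was the highest and vehicle replicate 1 the lowest, with the mCDC libraries between them. The group means of Myl1 were 2692 ± 178 CPM (SD, n = 2) for mCDC and 2694 ± 669 (SD, n = 2) for vehicle, a log2 fold change of -0.0014 (standard error 0.21, edgeR adjusted p = 0.999, 95% interval -0.48 to 0.48), whose sign turned under other scalings. The means of Mylpf were 2226 ± 279 and 2178 ± 628 CPM (SD, n = 2 each), a log2 fold change of 0.03 (standard error 0.23, edgeR adjusted p = 0.983, 95% interval -0.49 to 0.55), which was below 0 with library totals alone. Without vehicle replicate 2 the log2 fold changes of Myl1 and Mylpf were 0.28 and 0.36, and without vehicle replicate 1 they were -0.23 and -0.24.

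Myl6b, the essential chain shared by slow muscle and non-muscle cells, had the smallest p of the 7 genes. It had 334 and 326 CPM in mCDC replicates 1 and 2 and 280 and 255 CPM in vehicle replicates 1 and 2. The mCDC values lay close together and above both vehicle values, which were 267 ± 17.5 CPM against 330.2 ± 5.5 (SD, n = 2 each). The log2 fold change was 0.30 (standard error 0.13, edgeR's quasi-likelihood test, adjusted p = 0.714), a 1.23-fold difference with a 95% interval from 1.002-fold to 1.52-fold. It did not reach the 1.5-fold threshold of the study's methods.

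Myl4, the embryonic and atrial chain, stood at 101 and 86.7 CPM in mCDC muscles and at 83.1 and 93.1 CPM with vehicle. The groups overlapped, and the log2 fold change was 0.09 (standard error 0.14, edgeR adjusted p = 0.889, 95% interval -0.24 to 0.42). Mylk2, the light chain kinase, had 501 and 292 CPM in mCDC replicates 1 and 2, and 379 and 378 CPM in vehicle replicates 1 and 2. The mCDC muscles thus lay on either side of vehicle muscles that were almost equal, with means of 397 ± 148 and 378 ± 0.89 CPM (SD, n = 2 each). Its log2 fold change was 0.07 (standard error 0.23, edgeR adjusted p = 0.960, 95% interval -0.47 to 0.60), 0.40 without mCDC replicate 2 and -0.37 without mCDC replicate 1.

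**Figure D1:**
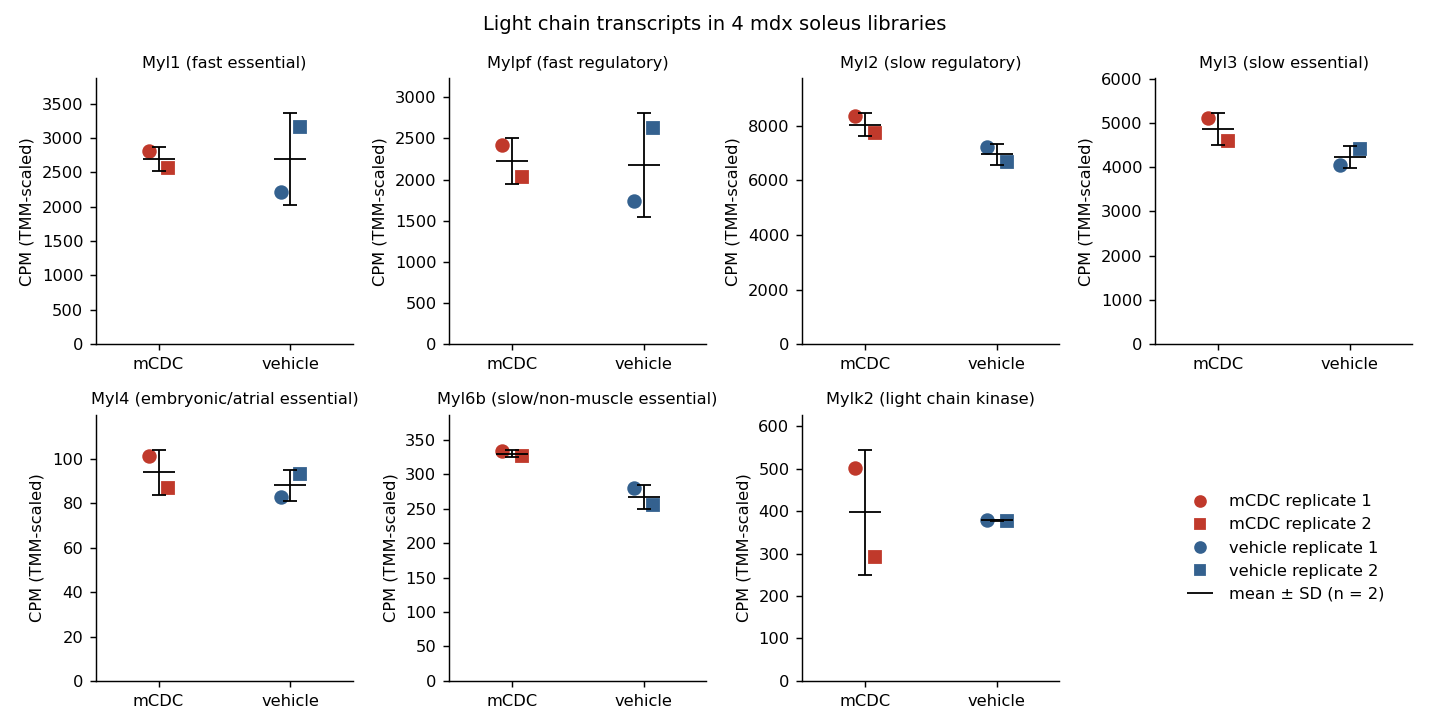
TMM-scaled CPM of each of the 7 genes (y axis, from 0) in the 2 mCDC and 2 vehicle libraries, with group mean and SD. For Myl2, Myl3 and Myl6b the mCDC points lie above the vehicle points, while Myl1 and Mylpf spread most within the vehicle group and Mylk2 within the mCDC group.

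The study's methods set the call at more than 1.5-fold with p below 0.05, which was applied here to the unadjusted p. All 7 genes passed the filter on low counts, and 0 of the 7 were called in either direction, where 1.26% of the 13652 genes tested were called higher and 2.74% lower. At an adjusted p under 0.05, 0 of the 7 passed, as did 0.00% of all genes. At an unadjusted p under 0.05 alone, 1 of the 7, Myl6b, passed, against 6.94% of all genes tested. Myl6b no longer passed in 7 of 9 other settings, among them RLE scaling, library totals, DESeq2, edgeR's exact test and removal of the length and GC trend, nor without either mCDC library or vehicle replicate 2. DESeq2 called 0 of the 7 by the 1.5-fold rule, against 2.35% of the genes it tested, and 0 of the 7 at an adjusted p under 0.05, against 0.265%. edgeR's exact test also called 0 of the 7, against 586 of the 13652 genes tested. After TMM scaling, groups did not overlap for 3 of the 7, or 42.9%, against 38.7% of all genes tested. Of these 3, Myl3 overlapped as a share of library totals. The median log2 fold change of the 7 genes was 0.09, beside -0.01 for all genes tested, and it ran from -0.023 without mCDC replicate 1 to 0.26 without mCDC replicate 2, with 0.24 without vehicle replicate 2. For 3 genes, Myl1, Mylpf and Myl4, the 95% interval lay wholly within a 1.5-fold change in either direction, and for the other 4 its upper end passed 1.5-fold. Levels were measured in bulk muscle, where fewer fibers of a type and less RNA per fiber cannot be told apart.

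**Figure D2:**
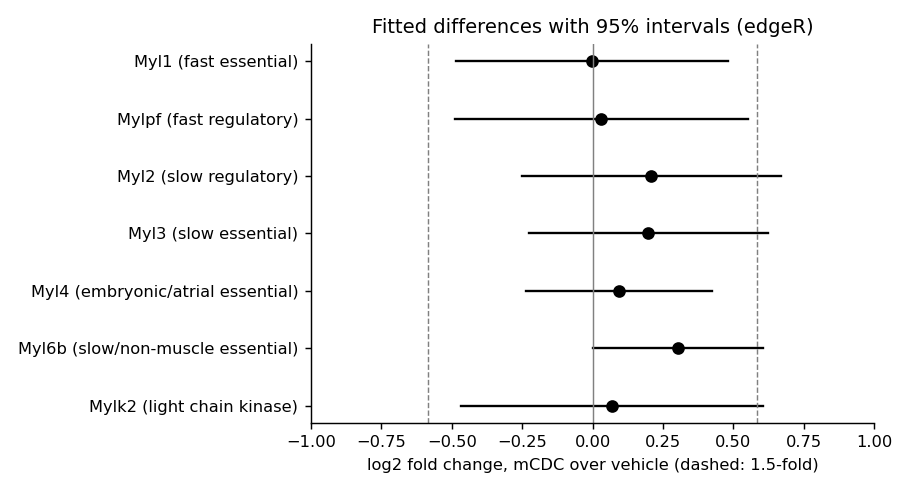
Fitted log2 fold change of mCDC over vehicle (x axis) for each gene, as a point with its 95% interval from edgeR's quasi-likelihood fit, and dashed lines at 1.5-fold. Each interval except that of Myl6b spans 0, and that of Myl6b begins at 0.0027.

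The balance of fast to slow chains was compared as a ratio of counts within each library, which does not depend on how libraries are scaled. The log2 ratio of Mylpf to Myl2 was -1.78 and -1.93 for the mCDC pair of muscles and -2.06 and -1.35 for vehicle replicates 1 and 2. Vehicle replicate 2 was thus the fastest and vehicle replicate 1 the slowest by this ratio. The mCDC mean was lower than the vehicle mean by a log2 difference of -0.15, which is smaller than the pooled SD of 0.36. It was -0.51 without vehicle replicate 1 and 0.20 without vehicle replicate 2. The log2 ratio of Myl1 to Myl3 was -0.86 and -0.84 in mCDC muscles, against -0.87 and -0.48 with vehicle. Here 3 libraries were nearly equal and vehicle replicate 2 stood above them, which gave a difference of -0.18 with a pooled SD of 0.20. Without vehicle replicate 1 this difference was -0.37, and without vehicle replicate 2 it was 0.018. Per length, Mylpf made up 20.1% and 18.5% of the regulatory chains in mCDC muscles, against 17.2% and 25.3% with vehicle. Myl1 made up 30.6% and 30.8% of the essential chains in mCDC muscles and 30.4% and 36.7% with vehicle, Myl3 made up 59.0% to 64.3%, Myl6b 3.11% to 4.13% and Myl4 at most 1.31%. No share separated the groups.

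Over all 4 libraries, the partners within each fiber type kept a steadier ratio than the fast chains did to the slow chains. The log2 ratio of Mylpf to Myl1 ranged from -0.36 to -0.22 and that of Myl2 to Myl3 from 0.60 to 0.83. For Myl1 to Myl3 this rested on vehicle replicate 2. In the other libraries that ratio lay between -0.87 and -0.84, a narrower spread than either partner ratio had there. Essential chains amounted to 0.51 to 0.59 of regulatory chains per length, and regulatory chains to 1.36 to 1.79 of the adult heavy chains Myh1, Myh2, Myh4 and Myh7 per length. For that last ratio the mCDC values were 1.63 and 1.79 and the vehicle values 1.36 and 1.63, and these overlapped by a small margin (1.626 against 1.635). Transcript lengths differ greatly between light and heavy chains, and the effect of read coverage along transcripts on this ratio was not tested.

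Heavy chain, troponin and calcium pump pairs gave the same highest and lowest vehicle library, unlike some other pairs among the listed genes. The log2 ratio of Myh1, Myh2 and Myh4 together to Myh7, the slow heavy chain, was -1.85 and -1.93 in mCDC muscles, against -1.95 and -1.56 with vehicle. The troponin pairs, Tnnt3 to Tnnt1, Tnni2 to Tnni1 and Tnnc2 to Tnnc1, were each lowest in vehicle replicate 1, at -1.04, -0.87 and -0.57, and highest in vehicle replicate 2, at -0.38, 0.11 and 0.34. The calcium pumps Atp2a1 and Atp2a2 had ratios from -0.69 to -0.14 with vehicle replicate 1 lowest and vehicle replicate 2 highest. In none of these pairs did the groups separate. Ratios of Myoz1 to Myoz2 and of Mybpc2 to Mybpc1 were instead highest in mCDC replicate 1 and lowest in mCDC replicate 2. That of Casq1 to Casq2 was lowest in mCDC replicate 2.

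**Figure D3:**
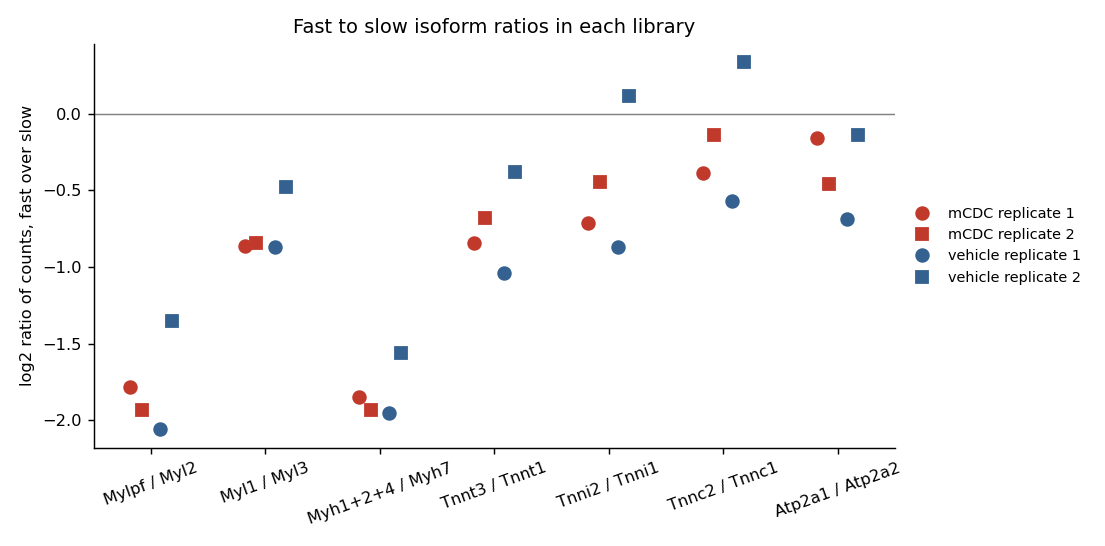
Log2 ratio of counts of the fast over the slow isoform (y axis) for light chains, heavy chains, troponins and calcium pumps in each library. Vehicle replicate 2 is the highest point and vehicle replicate 1 the lowest in each of the 7 pairs, with the mCDC libraries between them.

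Profiles over the 4 libraries were compared by the root mean square difference of log2 CPM after each gene's mean was removed. Myl1 and Mylpf differed by 0.056 and Myl2 and Myl6b by 0.056, whereas Mylpf and Myl2 differed by 0.27. Among 22 contractile genes of fast and slow fibers, the gene nearest to Mylpf was Tnnt3, the fast troponin T, at 0.11, and the gene nearest to Myl1 was the tropomyosin Tpm1, at 0.073. Nearest to Myl2 and Myl6b was Tnnc1, the slow and cardiac troponin C, at 0.027 and 0.055, and nearest to Myl3 and Myl4 was Tnnt1, the slow troponin T, at 0.079 and 0.081. Mylk2 was nearest to the fast Z-disc gene Myoz1, at 0.065, and to the calcium pump Atp2a1, at 0.076. Among all 7684 genes with at least 10 CPM, the nearest were Ets2 to Mylpf at 0.0089, Deaf1 to Myl1 at 0.012, Zfp637 to Myl2 at 0.0082, D17H6S53E to Myl3 at 0.0094, Sp1 to Myl4 at 0.0073, Hnrnpc to Myl6b at 0.0098 and Zfp503 to Mylk2 at 0.018. The number of genes within 0.1 was 1436 for Myl2, 54 for Mylpf and 17 for Mylk2, which themselves varied about their means by a root mean square of 0.12, 0.23 and 0.28.

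The fast light chains did not follow the heavy chain of the fastest fibers. Myh4, the heavy chain of type IIb fibers, had 2096 and 47.5 CPM in mCDC replicates 1 and 2 and 163 and 411 CPM in vehicle replicates 1 and 2, a 44.2-fold range, where Mylpf had a 1.51-fold range and Myl1 a 1.43-fold range. Myh4 was highest in mCDC replicate 1 and lowest in mCDC replicate 2, as Mylk2 was, and its root mean square difference from each of the 7 genes was the largest among the 22 contractile genes, at 1.73 to 1.99. Pvalb, a calcium buffer of fast fibers, Mybpc2, the fast myosin-binding protein C, and Actn3, the fast alpha-actinin, which were chosen after their values were seen, had ranges of 38.6-fold, 29.1-fold and 4.10-fold and the same highest and lowest libraries. Myh2, the type IIa heavy chain, stood at 6749 and 9617 CPM in mCDC muscles, against 7617 and 10859 CPM with vehicle. It was the most abundant fast heavy chain in each library, and highest in vehicle replicate 2, as the fast light chains were. Myh1, of type IIx fibers, stood at 4162 and 603 CPM in mCDC muscles and 4490 and 1661 CPM with vehicle, and Myh7 had 38237 to 47467 CPM. The log2 fold changes of Myh7, Myh2, Myh1 and Myh4 were 0.01, -0.17, -0.37 and 1.90, with edgeR adjusted p of 0.999, 0.889, 0.923 and 0.763, and none was called. Each turned sign when 1 library was left out. Myh4 was called lower, at -2.60, without mCDC replicate 1 and called higher, at 2.87, without mCDC replicate 2, and Myh1 was called lower, at -2.35, without mCDC replicate 1 and, at -0.79, with the replicate block.

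**Figure D4:**
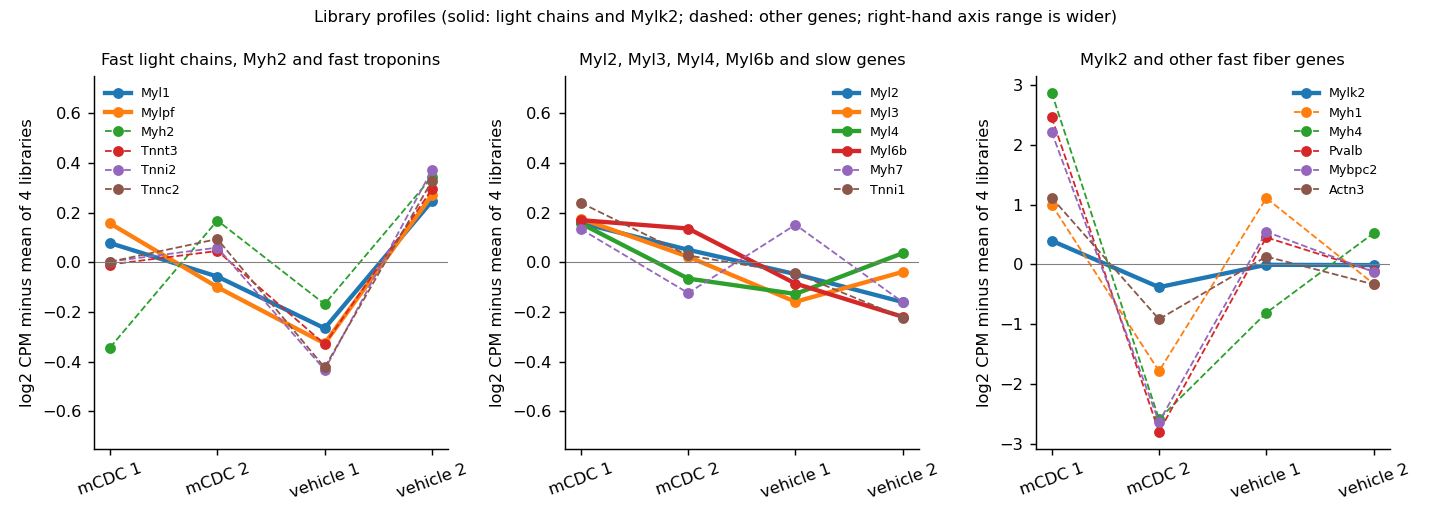
Log2 CPM minus the mean of the 4 libraries (y axis) for the light chains and Mylk2 (solid lines) beside other contractile genes (dashed lines). Lines only join the values of a gene, since libraries have no order. Myl1 and Mylpf peak with Myh2 and the fast troponins in vehicle replicate 2, and Mylk2 peaks with Myh4, Pvalb, Mybpc2 and Actn3 in mCDC replicate 1, at a much smaller range.

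Contractile genes outside the light chains were not called either. Of 13 fast fiber genes 0 were called in either direction, with a median log2 fold change of 0.06 and values from -0.37 to 1.90. Of 9 slow fiber genes 0 were called, with a median of 0.09 and values from -0.10 to 0.29. Among all genes tested, 1.26% were called higher and 2.74% lower. Omitting mCDC replicate 1 took the median of the fast genes to -0.25, and omitting mCDC replicate 2 took it to 0.41, while it was 0.32 without vehicle replicate 2 and -0.02 with library totals alone. The median of the slow genes ran from 0.034 without mCDC replicate 1 to 0.17 without vehicle replicate 1, and was 0.011 with library totals alone. Without mCDC replicate 1, 5 fast genes were called lower, beside 3.86% of all genes, and without mCDC replicate 2, 4 were called higher, beside 0.754% of all genes. In these fits the mCDC group is 1 library, which is assumed to vary as the vehicle pair does. After TMM scaling, groups did not overlap for the slow genes Tnni1, Tnnc1, Tnnt1, Casq2 and Myoz2, named after their values were seen. This makes 5 of 9, where 38.7% of all genes tested had such groups, and 0 of the 13 fast genes did. Groups of Myl2 and Myl3 did not overlap on that scale either. As shares of library totals, the groups of Tnnt1, Casq2, Myoz2 and Myl3 overlapped.

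The remaining light chains are mostly those of smooth muscle and non-muscle cells. Of 6 genes, 5 were tested and 0 were called, beside 1.26% of all genes called higher and 2.74% lower. Without vehicle replicate 2 the log2 fold change of Myl9 was 0.59, against 0.09 in the main fit. Myl6, the essential chain of smooth and non-muscle myosin, had 90.8 to 118 CPM, Myl9, a regulatory chain of smooth muscle, 15.6 to 28.7 CPM, and Myl10 10.3 to 15.8 CPM. Myl12a and Myl12b, regulatory chains of non-muscle myosin, had 1382 to 1710 CPM and 17.2 to 23.1 CPM, and their fractional counts show that reads were divided between copies, so their split is uncertain. Their log2 fold changes were 0.09 for Myl6, 0.09 for Myl9, -0.19 for Myl10, 0.15 for Myl12a and 0.04 for Myl12b, with edgeR adjusted p between 0.834 and 0.969. Myl7, the atrial regulatory chain, had 0 counts in every library, which allows up to 0.109 to 0.137 CPM at 3 counts per library. That limit covers counting error only.

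Among 10 genes of light chain phosphorylation, 2 were called, both lower in mCDC muscles, beside 2.74% of all genes tested. Ppp1r12b, which encodes the striated muscle targeting subunit of myosin phosphatase, stood at 50.3 and 26.8 CPM in mCDC muscles, against 130 and 55.6 CPM with vehicle. Vehicle replicate 1 was far above the rest, and the nearest libraries of the groups differed little. The log2 fold change was -1.26 (standard error 0.40, edgeR's quasi-likelihood test, adjusted p = 0.642), and it was -0.53 and not called without vehicle replicate 1, nor was it called by DESeq2. Mylk3, which encodes the cardiac light chain kinase, stood at 5.15 and 4.66 CPM in mCDC muscles, against 9.04 and 6.33 CPM with vehicle. Its log2 fold change was -0.64 (standard error 0.24, edgeR adjusted p = 0.705). Mylk3 was at -0.72 without mCDC replicate 1, -0.58 without mCDC replicate 2 and -0.37 without vehicle replicate 1, and was not called in these fits. The other 8, among them calmodulin genes, the smooth muscle kinase Mylk and phosphatase subunits, were not called, and the median of the 10 was 0.01. Of these 8, Mylk4, a further kinase gene of the family, was called lower with the replicate block and without mCDC replicate 1. Of 7 genes of myosin assembly and folding 0 were called, beside 1.26% of all genes called higher and 2.74% lower, with a median of -0.04. Of these 7, Mybph, which encodes myosin-binding protein H, was called higher by DESeq2, by edgeR's exact test and with the replicate block, and both Mybph and Hsp90aa1 were called higher without mCDC replicate 1.

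Markers of other cells were measured beside these results. Vehicle replicate 2, where the fast chains were highest, also had the largest summed level of 4 endothelial markers, 197 CPM against 86.8 to 110 in the others, and of 4 fibroblast markers, 463 CPM against 254 to 294. The sum of 4 adipocyte markers was highest in vehicle replicate 1, at 17.97 CPM, and lowest in vehicle replicate 2, at 3.82. Their part in the light chain levels was not tested. Over the groups, the sum of 6 smooth muscle markers was 264 and 291 CPM in mCDC and 235 and 293 in vehicle libraries, that of 4 macrophage markers 14.2 and 24.2 against 13.0 and 19.3, and that of 4 satellite cell markers 7.81 and 9.05 against 7.02 and 7.64. The 8 markers of regenerating fibers summed to 666 and 677 CPM in mCDC and 641 and 691 in vehicle libraries. Of these, 2, Myog and Myod1, named after their values were seen, were called higher, beside 1.26% of all genes tested. Log2 fold changes of the 8 were above 0 for 5 and below 0 for 3, namely Myh3 (-0.15), Myh8 (-0.12) and Mymx (-0.55). Myog fell from a log2 fold change of 1.068 to 0.51 without mCDC replicate 2 and Myod1 from 0.84 to 0.43 without mCDC replicate 1, and neither was then called, nor was Myod1 without vehicle replicate 1. Also named after their values were seen, 1 of 4 fibroblast markers (Pdgfra, lower), 2 of 4 macrophage markers (Csf1r, lower, and Cd68, higher) and 1 of 3 tested satellite cell markers (Pax7, higher) were called, with 0 of 4 endothelial, 0 of 4 adipocyte and 0 of 6 smooth muscle markers, beside 1.26% of all genes called higher and 2.74% lower. Each of these 4 calls was lost in other fits. Cd68 went from 1.49 to 0.26 without mCDC replicate 2 and was not called by DESeq2 or without either vehicle library. Pdgfra and Csf1r were at -0.23 and -0.30 without vehicle replicate 2 and were not called then, without mCDC replicate 2, with the replicate block or with no filter on low counts, nor Pdgfra with the length and GC trend removed, nor Csf1r by DESeq2. Pax7 was not called by DESeq2 or without mCDC replicate 1, mCDC replicate 2 or vehicle replicate 2, though its log2 fold change, 0.76, stayed between 0.65 and 0.78 in those fits. Of the endothelial markers, Pecam1 was called lower by DESeq2 and by edgeR's exact test. Without mCDC replicate 1 the log2 fold changes of Pecam1 and Cdh5 were -0.83 and -0.86, against -0.67 and -0.59 in the main fit. The fibroblast marker Dcn, at -0.54 in the main fit, was called lower with library totals alone, at -0.63, and was at -0.64 without mCDC replicate 1. Without vehicle replicate 1, 4 of 4 endothelial and 4 of 4 fibroblast markers were called lower, beside 6.12% of all genes, and 3 of 4 adipocyte markers higher, beside 1.99%. Without vehicle replicate 2, 4 of 4 adipocyte markers were called lower, beside 2.54% of all genes, and 0 of 4 endothelial and 0 of 4 fibroblast markers were called. Both fits set 1 vehicle muscle, assumed to vary as the mCDC pair does, against 2 mCDC muscles. The 8 cardiomyocyte markers summed to 102 to 123 CPM, nearly all of it Myh6 and Tnnt2, and the 6 others, Myl7 included, had at most 1.01 CPM in any library. Of the 4 of these 8 that were tested, 0 were called. As a check of the soleus label, Myh7 was the most abundant adult heavy chain in every library.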

How the data were processed

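RNA from 4 soleus muscles was sequenced as 75-base single-end reads. Using transcripts from UCSC as the reference, the authors ran Bowtie 2 and RSEM and deposited 1 expected count per gene and library, with no scaling between libraries. The submitters' processing notes list Bowtie2 2.1.0, RSEM 1.2.15 and mm10. The library kit differs between the study's methods (xGen Broad-Range) and the sample records (TruSeq Stranded mRNA).

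Expected counts were rounded, filtered with filterByExpr, TMM-scaled and tested across all genes with edgeR 4.0.16 (glmQLFit with legacy = FALSE) in R 4.3.3, with Benjamini-Hochberg adjustment. Standard errors were derived from the F statistic (log2 fold change over the root of F), and intervals use its degrees of freedom. The fit moderates the variance of each gene with that of all genes tested, which gave the 7 genes 7.96 degrees of freedom each. Log2 CPM used a prior count of 2. Transcript lengths came from GENCODE M21 (GRCm38), taking the longest RefSeq-linked coding transcript, and promoters from RefSeq (GRCm38.p6), where 6 of the 7 genes had an entry. Ratios and shares have no test, since 2 libraries against 2 cannot give an exact permutation p below 0.333. 6 lists of contractile and regulatory genes, the light chains included, and 8 marker lists were used, and a further list and a further motif are not reported here. The genes, lists and tests were chosen with earlier results of these data known. Genes named are the 7 genes, called genes of the lists, the main heavy chains, the other light chains, and the 3 nearest profiles per gene, of which the first is printed. Other list genes named were chosen after their values were seen. The procedure was tested on simulated data. Alternatives were DESeq2 1.42.0, other scalings, filters and tests, leaving out each library with the gene set kept (the lone library of a group is then assumed to vary like the other pair), a replicate block, and a fit with the trend on length and GC removed.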

Additional observations from a re-analysis of the deposited data

How the results depend on the processing

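With each alternative, 0 of the 7 light chain genes were called. Leaving out a library moved the mCDC minus vehicle difference of the log2 ratio of Mylpf to Myl2 from -0.15 to between -0.51 (without vehicle replicate 1) and 0.20 (without vehicle replicate 2), and that of Myl1 to Myl3 from -0.18 to between -0.37 and 0.018 (without the same libraries). Settings other than left-out libraries turned the sign of values near 0: Myl1 was at 0.0025 with RLE size factors, 0.012 with DESeq2, 0.020 with the replicate block and 0.0024 with the length and GC trend removed, while with library totals alone Mylpf was at -0.053, Mylk2 at -0.011, Myh7 at -0.070 and Myl12b at -0.039. With each library left out in turn, log2 fold changes ran from -0.23 to 0.28 for Myl1, -0.24 to 0.36 for Mylpf, -0.023 to 0.20 for Myl4, -0.37 to 0.40 for Mylk2, -0.14 to 0.17 for Myh7, -0.46 to 0.10 for Myh2, -2.35 to 0.52 for Myh1, -2.60 to 2.87 for Myh4, -0.067 to 0.27 for Myl6, -0.28 to 0.59 for Myl9, -0.51 to 0.070 for Myl10 and -0.15 to 0.27 for Myl12b. Those of Myl2, Myl3 and Myl6b stayed above 0, from 0.15 to 0.27, 0.12 to 0.27 and 0.24 to 0.37. For these genes both mCDC values already lay above both vehicle values, which left the sign little room to turn. Over all genes, leaving out a library gave 329 to 1107 calls, 103 to 383 higher and 226 to 835 lower, against 546, 172 and 374, with the fewest in each without mCDC replicate 2, the most in all and lower without vehicle replicate 1 and the most higher without mCDC replicate 1. Genes with an adjusted p under 0.05 numbered 0 with edgeR's quasi-likelihood test (947 had an unadjusted p under 0.05), 48 with DESeq2, 58 with edgeR's exact test. Omitting mCDC replicate 1 gave 86 such genes and omitting mCDC replicate 2 gave 12, whereas omitting vehicle replicates 1 and 2 gave 0 and 1. None of these was among the 7. With a library left out, list medians ran from -0.056 to 0.030 for light chain phosphorylation and from -0.14 to 0.13 for myosin assembly. Library totals gave 121 higher and 508 lower calls, and removal of the length and GC trend 214 and 287. The cause of these changes was not tested.

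The replicate numbers are only numbers, since nothing in the sample records pairs animals. Differences of replicate 1 from 2 correlated at -0.039 across genes between the groups. With the replicate block 481 genes were called, 172 higher and 309 lower, and Myh1 and Mylk4 were called lower, at -0.79 and -0.85, and Mybph higher, at 0.62, while Myh4 went from 1.90 to 0.30 and was not called. The median of all genes was -0.0094, and it was -0.089 with library totals alone, where the median of the 7 genes was 0.012.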
